A study of Mus musculus with 6 samples.

Results

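The HoxB cluster is a row of homeobox genes on mouse chromosome 11, and RNA is also made from the DNA between its genes. All 35 probes that the array carries for it were examined, out of 55681 non-control probes in all. They were the 11 probes named for Hoxb1 to Hoxb9 and Hoxb13 (10 genes) and every other probe placed in a window of 250 kb that starts at base 96000000 of chromosome 11 in the mm9 build. The 35 probes comprise 11 Hoxb gene probes, 17 probes for long intergenic noncoding RNAs (lincRNAs) and 7 others. All 11 Hoxb gene probes lay inside this window.

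The cells were mesenchyme of the forelimb autopod, the future hand plate, of C57BL/6 embryos at stage E11.5. All embryos carried the Sox9EGFP knock-in, in which a green fluorescent protein reports Sox9, a transcription factor of cartilage precursors. Flow cytometry separated cells with EGFP signal (Sox9-EGFP positive) from those without it (Sox9-EGFP negative), giving 3 samples in each group, each sample from about 10 autopods. Total RNA was amplified from an oligo-dT primer, from 100 ng per the extraction protocol and 75 ng per the labelling protocol, labelled with Cy3 and hybridised to 1-colour Agilent arrays of 62976 spots.
The sources used here give no litters, sorting days or gates, so p-values measure the spread between these samples, which may be technical.

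Hox genes encode transcription factors that give cells their position along the body and the limb. They stand in clusters, and the order of the genes on the chromosome follows the order in which they act along the body axis, a property called collinearity. In the limb bud the HoxA and HoxD clusters carry most of the known patterning roles. HoxB genes are best known from the hindbrain, the trunk and the lateral plate from which the forelimb grows. Vertebrate Hox clusters also hold microRNAs and many noncoding transcripts on both strands.

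The sort was visible in Sox9 itself (probe A_52_P214630, chr11:112648809-112648868). On the log2 scale relative to the 75th percentile of each array, Sox9 lay between 2.99 and 3.60 in the positive samples and between -1.13 and -0.88 in the negative samples. The difference was 4.37 (SE 0.20, adjusted p = 0.000513 by limma). Throughout, a probe is "measured" if, in either group, the scanner software marked it well above background on all 3 arrays, as it did for 47.5% of all probes. A measured probe is "called" if its Benjamini-Hochberg adjusted p from limma over all 26473 measured probes was under 0.05. The array of positive sample 1 was dimmer than the others, with a 75th percentile of 125.5 intensity units against 385 to 478, and 24743 spots well above background against 29800 to 35277. Arrays correlated at 0.964 to 0.992 among the positive samples, at 0.984 to 0.993 among the negative ones and at 0.941 to 0.970 across the groups. In sorted bulk samples, fewer cells that express a gene and less RNA per cell cannot be told apart.

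Most intergenic probes lie between Hoxb13 and Hoxb9. In the order of RefSeq genes (GRCm38.p6) this stretch holds the lncRNAs Gm30134, Gm11538, Gm53 and Gm51876 and the microRNA gene Mir196a-1. It also holds the pseudogene Gm11539, between Gm11538 and Gm53. The probe letters below, from the array files, show which strand each probe reads, and 2 of them overlap. Capitals in the first pair mark the 45 bases that are complementary between a reverse-strand and a forward-strand probe, with 0 mismatches. Capitals in the last sequence mark CAGGTAAGT, letters of the consensus at the start of introns. Probes are called by the last 4 characters of their identifiers.

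Probe 9010 (A_30_P01019010), reverse strand, chr11:96114981-96115040: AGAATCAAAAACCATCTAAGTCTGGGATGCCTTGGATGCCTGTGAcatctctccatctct
Probe 1551 (A_30_P01021551), forward strand, chr11:96114996-96115055: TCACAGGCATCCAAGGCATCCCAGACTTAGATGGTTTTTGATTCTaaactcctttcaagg
Gm53 probe (A_55_P1970131) and probe 2605 (A_30_P01022605), forward strand, chr11:96125513-96125572: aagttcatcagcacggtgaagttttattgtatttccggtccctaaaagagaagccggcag
Probe 0306 (A_30_P01030306), forward strand, chr11:96125675-96125734: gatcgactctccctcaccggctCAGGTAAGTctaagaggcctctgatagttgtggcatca

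CAGGTAAGT was found in 4 of the 16251 lincRNA probes of the array on the probe's own strand (0.0246%), and in 7 on either strand (0.0431%). The other matched pair, the Gm53 probe and probe 2605, is 1 sequence printed under 2 names, so its readings repeat each other and are not independent.

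Few Hoxb genes were measured in these cells, and the 2 that were called were both lower in Sox9-EGFP positive cells. Of the 10 genes, Hoxb2, Hoxb3 and Hoxb9 were measured, and 7 (Hoxb1, Hoxb4, Hoxb5, Hoxb6, Hoxb7, Hoxb8 and Hoxb13) were not well above background on any of the 6 arrays. Hoxb9 and Hoxb3 were called lower, Hoxb2 was not called, and 0 genes were called higher. Over all measured genes, 26.7% were called, 18.2% lower and 8.52% higher. All 3 measured Hoxb genes passed the background filter only through the negative group, which favours lower values in the positive group, so this count is a description and is not set against those shares. Of the 12 measured probes of the whole window, 0 were higher and 7 lower at an unadjusted p under 0.05 by limma. The share of all probes at that threshold is not given here. The Gm53 sequence is counted under 2 names, and several of these probes also passed the filter only through the negative group. This count too is a description only.

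Hoxb9, the gene next to the intergenic stretch, read -2.01, -1.40 and -1.78 in the 3 negative samples, with every array well above background (probe A_52_P973575, chr11:96137748-96137807, forward strand). In the positive samples it read -4.19, -5.54 and -5.05, and none of these arrays was well above background. The groups did not overlap: the highest positive reading lay below the lowest negative one. The processed signals were 6.89, 8.73 and 12.6 intensity units in the positive samples and 112, 146 and 140 in the negative ones. The log2 difference was -3.20 (SE 0.37, 95% interval -4.09 to -2.31, adjusted p = 0.00402 by limma). Since the positive readings are bounds only, Hoxb9 was at least 5.05-fold lower in positive cells on the scale of the processed signals. That bound sets the mean of the negative group against, on each positive array, the higher of the probe's own value and the lowest signal of any spot well above background. The fitted size depends on how dim signals are treated. It was -1.26 after normexp background correction with an offset of 50 and quantile normalization (adjusted p = 0.00123 by limma). In the authors' log2 values it was -1.24 (adjusted p = 0.00113 by limma). These sizes are 2.40-fold and 2.37-fold, below the bound, which holds only for the processed signals.

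Hoxb3, an anterior gene of the cluster with roles in the hindbrain, read -1.04, -1.20 and -1.84 in the negative samples and -4.07, -3.78 and -2.83 in the positive samples (probe A_51_P460643, chr11:96207114-96207173, forward strand). Again the groups did not overlap, and within the positive group sample 1 was below background while samples 2 and 3 were above it. The log2 difference was -2.20 (SE 0.38, 95% interval -3.11 to -1.29, adjusted p = 0.0124 by limma). It was -1.08 under normexp and -1.05 in the authors' values, and the call was lost when negative sample 1 was left out (adjusted p = 0.0547 by limma) or when probes of any brightness were tested (0.0609). Hoxb3 has another probe (A_52_P312467), 1828 bases further on, which stayed at background on all 6 arrays. The first Hoxb3 probe shares a run of 20 bases with a probe placed on chromosome 5, and what that transcript adds to its signal was not tested.

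Hoxb2, the neighbour of Hoxb3 and a regulator of hindbrain segment identity, read -3.34, -3.05 and -3.56 in the negative samples and -3.24, -3.77 and -4.42 in the positive samples (probe A_52_P15300, chr11:96215122-96215181, forward strand). The groups overlapped. The log2 difference was -0.50 (SE 0.32, 95% interval -1.27 to 0.27, adjusted p = 0.314 by limma), and that interval holds both no change and a fall of more than 1 log2 unit.

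The 7 unmeasured genes span the cluster from Hoxb13 to Hoxb1, which lie 170.656 kb apart on the array's map. Together with the unmeasured Hoxb3 probe and the other probes at background on every array, they make 18 of the 35 probes. Their readings ranged from -7.08 to -4.50 on the log2 scale, or 3.08 to 16.3 intensity units. At these levels a difference between the groups was not detectable, and no fold was computed.

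**Figure D1:**
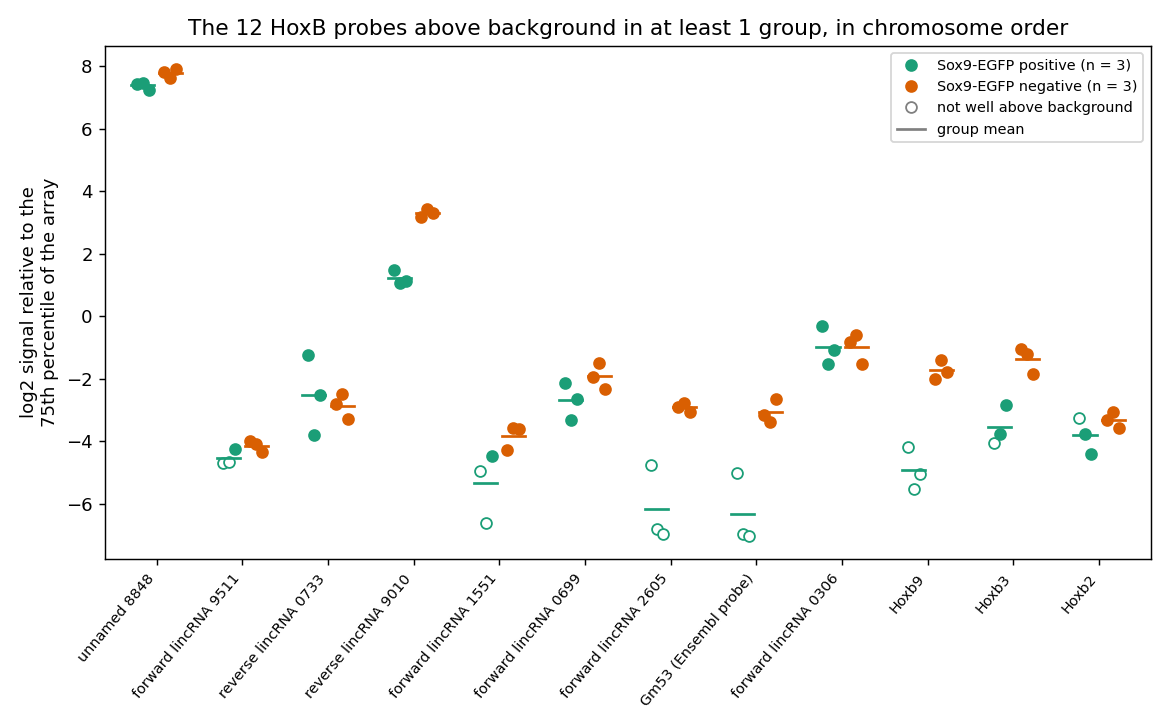
Log2 signal relative to the array's 75th percentile (y axis) for the 12 measured HoxB probes in chromosome order, with 3 Sox9-EGFP positive (green) and 3 negative (orange) samples as points and group means as lines. Open circles are readings not well above background. For Hoxb9, Gm53 and probe 2605 all 3 positive readings are open and lie below the negative ones. Levels can be compared within a probe, not between probes.

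Over the whole window, 12 of the 35 probes were measured, and 5 of these were called lower, 0 higher and 7 not called. The Gm53 sequence is counted under 2 names, both among those called lower. Among all measured probes 13.7% were called lower and 7.96% higher, 21.6% in all. Readings did not overlap between the groups for 7 of the 12 HoxB probes, in each case with the positive samples below the negative ones. Among all measured probes 43.2% did not overlap, and 28.2% lay lower in positive samples without overlap. Of the 12, 7 passed the background filter only through the negative group, 0 only through the positive group and 5 through both. Over all measured probes 16.6% passed only through the negative group and 1.42% only through the positive group. A probe that enters only through the negative group is bright in negative cells by selection. The counts of calls and of probes without overlap are therefore descriptions and not tests. Likewise the median difference of -1.15 over the 12 probes, beside -0.10 over all measured probes, describes them and is not a test. The number of window probes called lower was 3 without positive sample 3, 2 without negative sample 1 and 3 without negative sample 3. It was 2 with no background filter, and 1 when probes had to be above background on all 6 arrays. Of the Hoxb genes, 1 was called lower without negative sample 1 or with no filter, and none was tested under the 6-array filter.

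The called probe of the window that was above background on all 6 arrays was not a probe for a Hox gene. It was probe 9010, named for a reverse-strand lincRNA, and lies 22707 bases from the Hoxb9 probe on the Hoxb13 side. The array design assigns it to a transcribed domain at chr11:96111499-96126224, reverse strand, while the Hoxb gene probes read the forward strand. Probe 9010 read 1.49, 1.08 and 1.13 in the positive samples and 3.17, 3.43 and 3.29 in the negative samples. Each positive reading lay more than 1 log2 unit below each negative one. The processed signals were 353, 857 and 917 intensity units against 4028, 4132 and 4693. The difference was -2.06 (SE 0.16, 95% interval -2.46 to -1.67, adjusted p = 0.00133 by limma), a 4.18-fold lower signal in positive cells. The size was -1.76 under normexp and -1.74 in the authors' values. Within the 3 slides, each of which carried 1 array of either group, the difference was -1.93, -2.22 and -2.04.

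The probes around 9010 had smaller differences or were not measured, and differences between probes were not tested. The domain has 4 reverse-strand and 4 forward-strand probes inside 289 bases (chr11:96114827-96115115). Of the reverse-strand probes only 9010 and 0733 were measured, and the other 2 were at background on all 6 arrays. Probe 0733 (A_30_P01030733, chr11:96114887-96114946) lies just beside it and read -1.24, -3.80 and -2.53 in the positive samples and -2.81, -2.48 and -3.30 in the negative ones. Its groups overlapped, and the difference was 0.34 (SE 0.63, 95% interval -1.20 to 1.88, adjusted p = 0.746 by limma). Without positive sample 1 it was -0.30.

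On the forward strand 3 of the 4 probes were measured and none was called. Probe 1551, which covers the same 45 bases as 9010 from the opposite strand, read -4.95, -6.61 and -4.48 in positive and -4.28, -3.57 and -3.60 in negative samples. Only 1 of its 3 positive readings was above background. Its difference was -1.53 (SE 0.56, adjusted p = 0.103 by limma), and it passed the threshold after quantile normalization (-2.15, adjusted p = 0.0287). Probe 0699 (A_30_P01030699, chr11:96115056-96115115) read -2.12, -3.31 and -2.65 in positive and -1.94, -1.50 and -2.34 in negative samples, with overlap, and differed by -0.77 (SE 0.35, adjusted p = 0.173 by limma). It passed the threshold with a slide term (adjusted p = 0.0246), after quantile normalization (0.0490) and in the authors' values (0.0498). Probe 9511 (A_30_P01019511, chr11:96114843-96114902) averaged -4.55 ± 0.24 in positive and -4.14 ± 0.18 in negative samples (SD, n = 3 each), with overlap, and differed by -0.40 (SE 0.18, adjusted p = 0.161 by limma).

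Gm53 is annotated as a noncoding RNA gene between Hoxb13 and Hoxb9, and the array file describes the transcript ENSMUST00000107676 as its product. The sequence shared by the Gm53 probe and probe 2605 lies 12175 bases from the Hoxb9 probe on the forward strand. Read by the Gm53 probe, it was at -5.03, -6.96 and -7.02 in the positive samples and -3.17, -3.39 and -2.64 in the negative samples. Read by probe 2605, it was at -4.75, -6.82 and -6.97 against -2.91, -2.77 and -3.07. On both, every positive reading was at background, every negative reading was above it, and the groups did not overlap. The differences were -3.27 (SE 0.57, adjusted p = 0.0131 by limma) and -3.26 (SE 0.59, adjusted p = 0.0146). Bounded as for Hoxb9, the signal was at least 1.996-fold lower in positive cells by the Gm53 probe and at least 2.21-fold by probe 2605. The fitted sizes were -0.95 and -0.81 under normexp and -0.96 and -0.81 in the authors' values. Under normexp these are 1.93-fold and 1.76-fold, below the bounds, which hold only for the processed signals. Both calls were lost without positive sample 3, negative sample 1 or negative sample 3 (adjusted p = 0.0508 to 0.0590 by limma) and with no background filter (0.0588 and 0.0646).

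Probe 0306 starts 102 bases after the end of that sequence, in the same annotated forward-strand domain (chr11:96112907-96125798). It is the probe that holds the intron-start letters. It was above background on all 6 arrays and read -0.32, -1.53 and -1.09 in positive and -0.82, -0.59 and -1.52 in negative samples. The groups overlapped, with a difference of -0.01 (SE 0.38, 95% interval -0.93 to 0.91, adjusted p = 0.991 by limma). The last probe of the domain was at background on all 6 arrays.

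**Figure D2:**
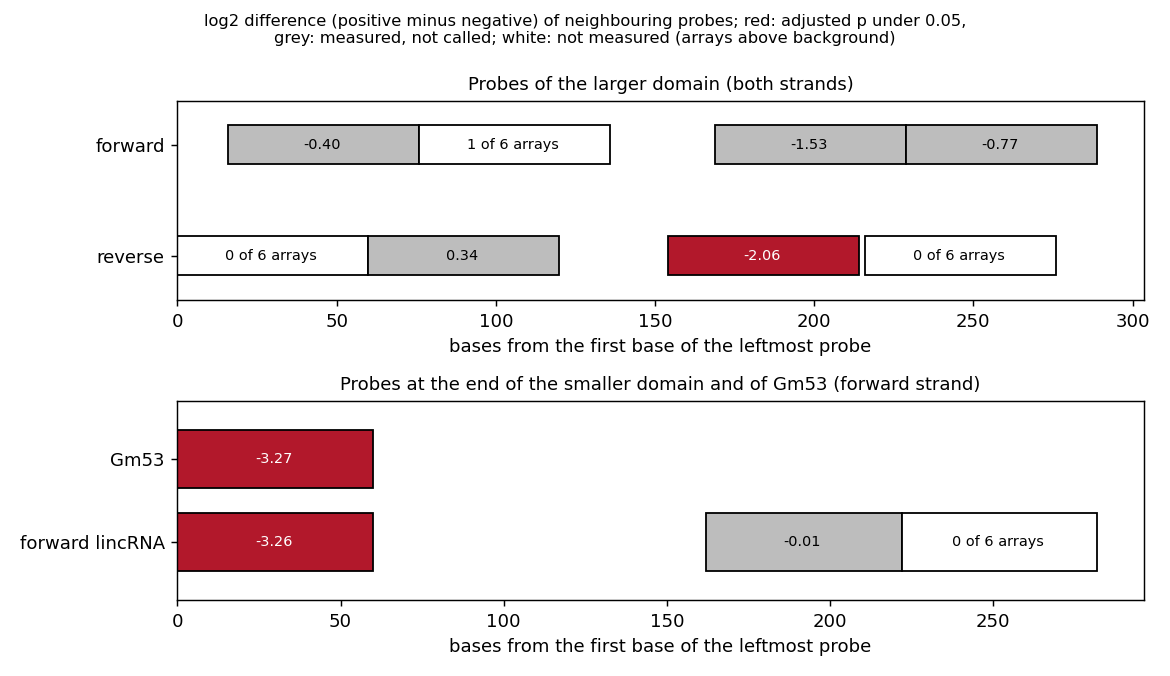
Neighbouring intergenic probes drawn to scale as boxes (x axis, bases from the first base of the leftmost probe), with the strand or transcript on the y axis. Each box gives the log2 difference, positive minus negative, or for unmeasured probes the number of arrays above background. Probe 9010 (-2.06) lies over probe 1551 (-1.53) on the opposite strand, and the shared Gm53 sequence (-3.27 and -3.26) lies beside probe 0306 (-0.01).

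Of the 7 measured lincRNA probes of the window, 2 were called lower and 5 were not called. Among the 4727 lincRNA probes measured on the whole array, 13.5% were called, 5.1% lower and 8.38% higher, and their median difference was 0.18. Some of the 7 window probes passed the background filter only through the negative group, among them 1 of the 2 called lower. That route favours lower values in the positive group, so the count of 2 is a description and is not set against those shares. The lincRNA probes of 2 short domains between Hoxb5 and Hoxb4 had 0 measured of 6. The probe of ENSMUST00000150698, whose file entry names a clone listed as an older name of the antisense RNA Hoxb5os, was at background on every array. So were the probes of Gm11538 and Gm11536. Of the probes for Ttll6, which encodes an enzyme that adds glutamates to tubulin and borders the cluster, 1 was at background on every array and the other was above it on 3 of 6.

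A probe with no gene in the file was above background on all 6 arrays (8848, A_55_P1998848, chr11:96110121-96110180, forward strand). It read 7.43, 7.47 and 7.26 in positive and 7.83, 7.63 and 7.91 in negative samples. The groups did not overlap, but the difference of -0.40 (SE 0.14, adjusted p = 0.0895 by limma) missed the threshold. It shares no run of 20 or more bases with another probe of the array, and copies of its sequence elsewhere in the genome were not tested.

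**Figure D3:**
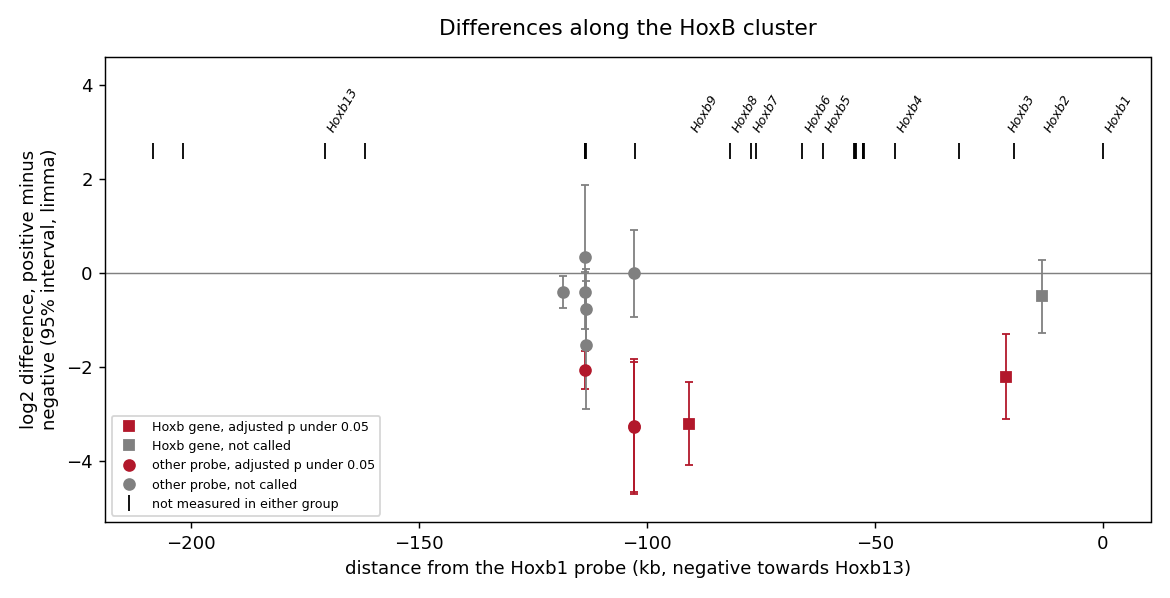
Log2 difference, positive minus negative, with 95% limma intervals (y axis) against distance from the Hoxb1 probe in kb (x axis). Squares are Hoxb genes, circles other probes, red a call, and ticks probes not measured in either group. The red points are probe 9010, the Gm53 sequence, Hoxb9 and, 69.306 kb from Hoxb9, Hoxb3, with only unmeasured probes between the last 2.

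In order along the chromosome, the measured Hoxb genes were Hoxb9 (-3.20), Hoxb3 (-2.20) and Hoxb2 (-0.50). With 3 of 10 genes measured, an order along the cluster was not tested. Within the slides, Hoxb9 differed by -2.79, -3.76 and -3.05, and Hoxb3 by -2.87, -1.95 and -1.79, so each was lower in positive cells on every slide. Without the dim positive sample 1 the differences were -3.57 for Hoxb9 (adjusted p = 0.00159 by limma), -1.95 for Hoxb3 (0.0197), -2.19 for probe 9010 (0.00132), -3.93 for the Gm53 probe (0.00128) and -3.98 for probe 2605 (0.000745).

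The measured paralogues of Hoxb9 and Hoxb3 in the other clusters had differences of the opposite sign. Of the 11 HoxA genes, all measured, 1 was called higher (Hoxa11, 1.61) and 0 lower, with a median difference of 0.15. Of the 9 HoxC genes, 3 were measured and 2 called higher. Hoxc6 was higher by 3.04, or 1.69 under normexp. Hoxc4 was at background on all 3 negative arrays. On the processed signals Hoxc4 was at least 3.15-fold higher in positive cells, while its log2 difference under normexp, 0.77, was below that bound. Of the 9 HoxD genes, 8 were measured, with 3 called higher (Hoxd3, 3.53, or 1.22 under normexp, Hoxd9, 1.40, and Hoxd8, 1.34) and 2 lower (Hoxd13, -1.61, and Hoxd12, -0.77). Hoxd12 lost its call under quantile normalization (-0.40, adjusted p = 0.241 by limma) and normexp (-0.37, 0.209). Over all measured genes the median difference was -0.18.

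Group by group, Hoxb9 (-3.20) stood beside Hoxa9 (0.47, not called) and Hoxd9 (1.40, called), which are partners of Hoxb9 in patterning the early forelimb field. Hoxd9 read 1.88, 2.24 and 2.22 in positive and 0.88, 0.57 and 0.71 in negative samples, so the groups did not overlap and positive samples were higher. Hoxb3 (-2.20) stood beside Hoxa3 (0.24, not called) and Hoxd3 (3.53, called). Hoxd3 read -1.08, -1.57 and -1.75 in positive samples and -5.24, -4.21 and -5.55 in negative samples, where 1 of 3 arrays was above background. Differences between paralogues were not tested.

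**Figure D4:**
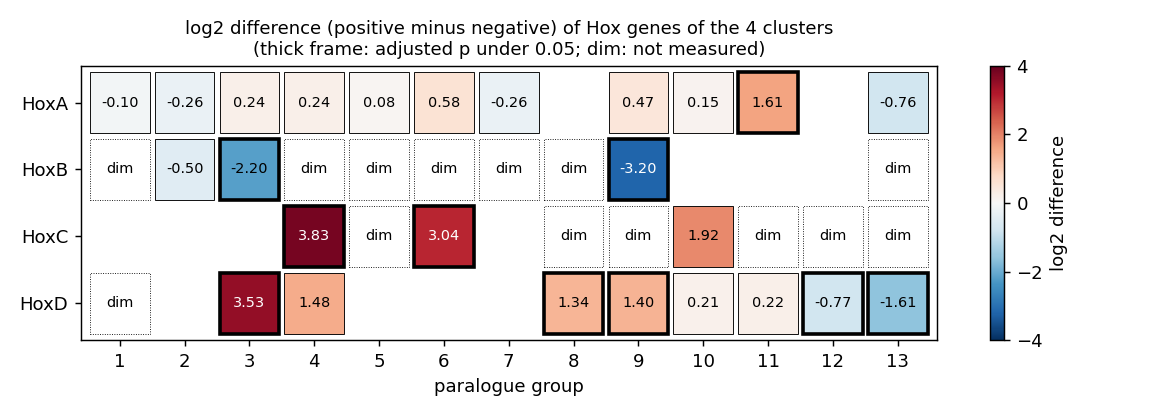
Log2 difference, positive minus negative, of each Hox gene by cluster (y axis) and paralogue group (x axis), coloured from blue (lower in positive cells) to red (higher). Thick frames mark calls and "dim" marks genes not measured, that is not above background on all 3 arrays of either group. In group 9 Hoxb9 is at -3.20 and Hoxd9 at 1.40, and in group 3 Hoxb3 is at -2.20 and Hoxd3 at 3.53.

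Hox proteins bind DNA with the TALE homeodomain proteins of the Meis, Pbx and Pknox families. Of these 9 cofactor genes 8 were measured, with 2 called higher (Pknox2, 1.51, and Pbx3, 1.05) and 1 lower (Pknox1, -0.86), and a median of 0.54.

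Retinoic acid is a known inducer of HoxB genes. Of 19 genes that make, break down, carry or sense it, 15 were measured, with 4 called higher, 3 lower and a median of -0.04. Aldh1a2, which makes retinoic acid, was higher (3.52, SE 0.41, adjusted p = 0.00437 by limma). Cyp26b1, which degrades it, was lower (-1.33, SE 0.20, adjusted p = 0.00856), and Dhrs3, which reduces retinal, was higher (0.83, SE 0.13, adjusted p = 0.00902). The other calls were Rarb (1.26, or 0.50 under normexp) and Crabp2 (0.66), both higher, and Crabp1 (-1.11) and Stra6 (-0.79), both lower. Under quantile normalization and under normexp 1 of the genes was called lower.

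Polycomb and trithorax proteins hold Hox genes silent or active. Of 25 such genes 23 were measured, with 1 called higher (Phf1, 0.97), 3 lower (Wdr5, -0.72, Suz12, -0.64, and Ash2l, -0.53) and a median of -0.14. None of the 3 was called lower under quantile normalization or normexp.

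Markers of other cells moved between the same samples. Of 8 muscle precursor genes 6 were measured, with 3 called lower in positive cells. Pax3, which marks muscle cells that migrate into the limb, read -5.01, -6.88 and -6.99 in positive samples, all at background, and -1.95, -1.67 and -2.37 in negative samples. On the processed signals Pax3 was at least 4.19-fold lower in positive cells, while its log2 difference under normexp, -1.33, was smaller than that bound. Lbx1, another gene of migrating muscle precursors, was lower by the fit (-3.60, or -1.73 under normexp) and above background on 1 of 3 positive arrays. Myog, of differentiating muscle, was at background on all 3 positive arrays. On the processed signals Myog was at least 2.15-fold lower, while its log2 difference under normexp, -0.98, was smaller than that bound. Pax7 and Myf5 were not measured.
Of 7 Schwann cell and neural crest genes 3 were measured. Ngfr was lower (-4.89), Sox10 was higher (1.70, or 0.51 under normexp), and the linear signal summed over the list was 1.69 to 1.98 times the array's 75th percentile in positive and 13.9 to 16.2 times in negative samples. Of 8 general and distal limb mesenchyme genes, all measured, 5 were lower and 1 higher, among them Msx1 (-4.56), with sums of 120 to 130 against 304 to 321. Of 9 cartilage genes 8 were measured and 6 were higher, with sums of 308 to 341 against 66.1 to 91.0. Sox9, whose reporter defined the sort, is among these 6 and is part of the sums. Of 7 proximal limb genes 4 were measured and 1 was higher, with sums of 23.1 to 42.0 against 12.5 to 23.8. What part these markers have in the HoxB differences was not tested.

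Other lists marked cells that a limb sample can hold besides mesenchyme. Ectoderm (6 of 10 measured, 3 higher) summed to 22.4 to 37.1 in positive and 9.25 to 11.6 in negative samples. The ectoderm genes called higher were Krt18 (2.59), Krt8 (1.22) and Fgf8 (1.43). Under quantile normalization and normexp Fgf8 lost its call (adjusted p = 0.0697 and 0.0846 by limma) and Trp63 (1.01) gained one (0.0345 and 0.0184). Epcam (-0.43) and Krt14 (-0.03) were not called, and Krt5, Cdh1, Wnt3 and Cldn6 were not measured. Neurons (4 of 6, 1 higher) summed to 2.92 to 3.43 against 2.29 to 2.52. Endothelium (2 of 8), red blood cells (5 of 8) and macrophages (2 of 8) had 0 calls in either direction in this fit. With slide as a term, the red blood cell genes Gata1 (-2.77, adjusted p = 0.00551 by limma) and Hba-a1 (-2.44, 0.0368) were called lower, and Gata1 was also called after quantile normalization (-3.27, 0.0248). The sums of these 3 lists in positive and negative samples were 2.75 to 7.84 against 1.85 to 4.69, 1.07 to 4.93 against 1.73 to 43.2, and 1.34 to 2.61 against 0.59 to 13.99. The highest values of the last pair of lists, red blood cells and macrophages, were those of negative sample 2.

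Over the 6 arrays, genes whose readings were among the 5 most like those of the Hoxb3 probe were Glrb (Pearson r 0.993), Bcas3 (0.989), Alpl (0.989) and Ankfy1 (0.989). These correlations describe 6 arrays in 2 groups, and 121 of 13196 other genes had an r over 0.95. Of those named, Glrb (-0.52), a subunit of the glycine receptor, and Alpl (-1.87), the tissue-nonspecific alkaline phosphatase, were called lower. Their direction follows from choosing genes like a probe that read lower in every positive sample, so these calls are a description only.

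RefSeq promoters of 300 bases (GRCm38.p6) were held for Hoxb8, Hoxb4, Hoxb3os and Hoxb1. Hoxb8, Hoxb4 and Hoxb1 were not measured on the arrays, which carry no probe under the name Hoxb3os. On either strand, the Meis letters TGACAG were in 0 of the 4 and in 19.2% of 32851 promoters, and the Pbx-Hox letters TGATTNAT in 0 of the 4 and 3.22%. The retinoic acid receptor letters AGGTCA were in the Hoxb4 promoter and 16.3% of all promoters, and the Sox letters ACAATG in the Hoxb3os promoter and 12.6%. These are letter matches and not binding sites.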

How the data were processed

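Per the file headers, the authors obtained the deposited intensity values from Agilent's Feature Extraction software, version 10.7.3.1, which subtracts background within each 1-colour array and does not scale arrays to each other. The deposited log2 values in the series matrix were quantile-normalized by the authors, since the sorted columns differ by at most 0.01 at any rank over all 62976 spots, control spots included (column median 6.47 without them); the sources used here do not give their background correction. They track the log2 mean signal (r 0.997 to 0.998), so their scale is log2 and their direction is that of the signal, while their centring is unknown. Coordinates are mm9, per the file headers, and whether a probe lies in an exon, intron or UTR was not analysed here.

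Processed intensities were taken as log2 minus each array's 75th percentile over 59305 non-control spots; the 3671 control spots and outlier spots were left out and replicate spots of 432 probes averaged. Of 55681 probes, 26489 passed the background flag on every array of either group, 16 were left out for outlier spots, and 26473 were tested with limma 3.58.1 in R 4.3.3 (lmFit, eBayes, Benjamini-Hochberg, threshold 0.05). The brightest probe stood for each of 13197 genes. The number of arrays, 3 per group, limits the precision. Fits were tested on simulated data.

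Each of the 3 slides held 1 array of either group under different replicate numbers. Deviations from the group means correlated at -0.27, -0.46 and 0.28 between same-numbered arrays, so the numbers were not taken to pair samples, and at 0.56, 0.41 and 0.24 between arrays of a slide.

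Named were Sox9, every member gene and probe, up to 3 genes of each list by adjusted p with its other calls, and the 5 genes most correlated with the brightest Hoxb probe. All genes of the ectoderm list were also named. A gene that these rules chose, and a marker with the sum of its list, are not reported here. Members and lists were chosen with earlier results of these data known. The intron-start letters and the definition of the floor behind "at least" folds over single spots were chosen after seeing values.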

Additional observations from a re-analysis of the deposited data

How the results depend on the processing

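Hoxb9 and probe 9010 were called lower under every alternative that tested them, from -3.57 to -1.24 for Hoxb9 and from -2.19 to -1.74 for probe 9010. Neither Hoxb9 nor Hoxb3 was tested when probes had to be above background on all 6 arrays. The number of window probes called lower (5) was 2 with no background filter, 1 with the 6-array filter, 2 at an adjusted p under 0.01, 7 with quantile normalization, 6 in the authors' values, and 2 to 5 when 1 sample was left out. The number of Hoxb genes called lower (2) was 1 with no filter, 0 with the 6-array filter, 1 at the stricter threshold and 1 to 2 when 1 sample was left out. No HoxB probe was called higher under any of these alternatives. Over all probes, 5731 were called, against 3795 with quantile normalization, 1350 with no filter, 1718 at the stricter threshold and 2027 to 6449 when 1 sample was left out.

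With the replicate number as a block, which the labels do not tie to a litter or day, 1370 probes were called, with 1 Hoxb gene and 4 window probes lower, and Hoxb3 at an adjusted p of 0.0659 by limma. With slide as a block 6592 were called, with 2 Hoxb genes and 6 window probes lower.

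The HoxD genes called lower fell from 2 to 1 under quantile normalization and to 1 under normexp. The retinoic acid genes called lower fell from 3 to 1 under either. The Polycomb and trithorax genes called lower fell from 3 to 0 under either, and those called higher were 2 under normexp. When 1 sample was left out, the difference of probe 0733 ranged from -0.30 (without positive sample 1) to 0.98, and that of probe 0306 from -0.34 to 0.27. Neither was called in any of these. Signal over background sets the limit: 23 of the 35 probes gave no comparison, and the sizes at dim probes depend on the background correction.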

Other observations

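The 2 short forward-strand lincRNA domains between Hoxb5 and Hoxb4 (chr11:96173788-96174352 and chr11:96175764-96176029) have 3 probes each. Of these 6 probes, 3 were well above background on positive sample 3 and on no other array, with processed signals of 25.1, 27.9 and 42.1 intensity units there. The other 3 were at background on all 6 arrays. That array also had the most spots well above background (35277).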
